A study of Rattus norvegicus with 6 samples.

Results

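The trypsin-like serine proteases are enzymes of 1 structural family that cut proteins with a serine in the active site, and they were followed here through their H3K27me3 peaks in neonatal rat heart cells. Members were all genes, in the union of the 4 deposited gene lists, whose annotated domain names include exactly the trypsin-like cysteine/serine peptidase domain. The domain rule does not use the treatment, but the family was chosen with earlier results of these data known. A member also had to have a peak in at least 1 library. This gave 138 entries (Ensembl gene IDs) of 22427 listed in all, 130 of them with a symbol. Membership followed the domain and not activity, so a few members, such as haptoglobin (Hp) and hepatocyte growth factor (Hgf), have the protease fold without being proteases.

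The study profiled H3K27me3, the trimethylation of lysine 27 of histone H3, with ChIP-seq (sequencing of DNA that an antibody to the mark pulls down) in primary cardiomyocytes from newborn Sprague Dawley rats. The α-KG group held 2 libraries from cells given α-ketoglutarate (α-KG), which is made in the tricarboxylic acid cycle, at 5 mM for 24 h. The control group held 2 libraries from cells given phosphate-buffered saline (PBS) over the same 24 h, and both groups were grown in DMEM with serum. The 2 input samples, 1 for each treatment, were not analysed here. For each library the deposited list gives only which genes had a peak. A gene is therefore listed or not listed, the strength and place of its peak and the read depth are unknown, and an unlisted gene may be unmarked or undetected. Nothing in the labels says whether replicates came from separate cultures, so a p-value measures only the spread between these libraries, which may be technical.

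H3K27me3 is placed by Polycomb repressive complex 2 and is found at genes that a cell keeps silent, often at genes of other tissues. Most trypsin-like proteases are made as inactive precursors in particular cells: trypsins, chymotrypsin and elastases in the pancreas, clotting and complement factors in the liver, granzymes and chymases in lymphocytes and mast cells, and kallikreins in glands and skin. In the heart, the membrane protease corin matures atrial natriuretic peptide, urokinase (Plau) and plasmin (Plg) take part in fibrinolysis and matrix remodelling, and in humans mast cell chymase (Cma1) can make angiotensin II. A peak does not measure expression. Of 5 cardiomyocyte markers, α-KG 1, α-KG 2, control 1 and control 2 listed 3, 2, 3 and 3. Tnnt2 and Actc1 were in all 4 libraries, Tnni3 was in α-KG 1 alone and Ryr2 in the 2 controls alone. Myh6 had no entry in any list. A listing is therefore not read here as silencing of the gene.

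Trypsin-like protease genes carried a peak unevenly across the libraries. In all 4 libraries were 54 of the 138 entries (39.1%), against 62.8% of all listed entries. A further 31 entries (22.5%) were in 1 library, against 12.9% of the entries outside the family, 27 were in 2 libraries and 26 in 3. Every member was listed at least once by construction, so genes of the family without an entry are not in these denominators. Serpins, the inhibitors of many of these enzymes, were in all 4 libraries for 9 of 37 entries (24.3%), and the metalloproteinases of the ADAM, ADAMTS and MMP families for 44 of 64 (68.8%). These shares are descriptions without a test, since genes that lie side by side can share a peak and are not replicates.

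**Figure D1:**
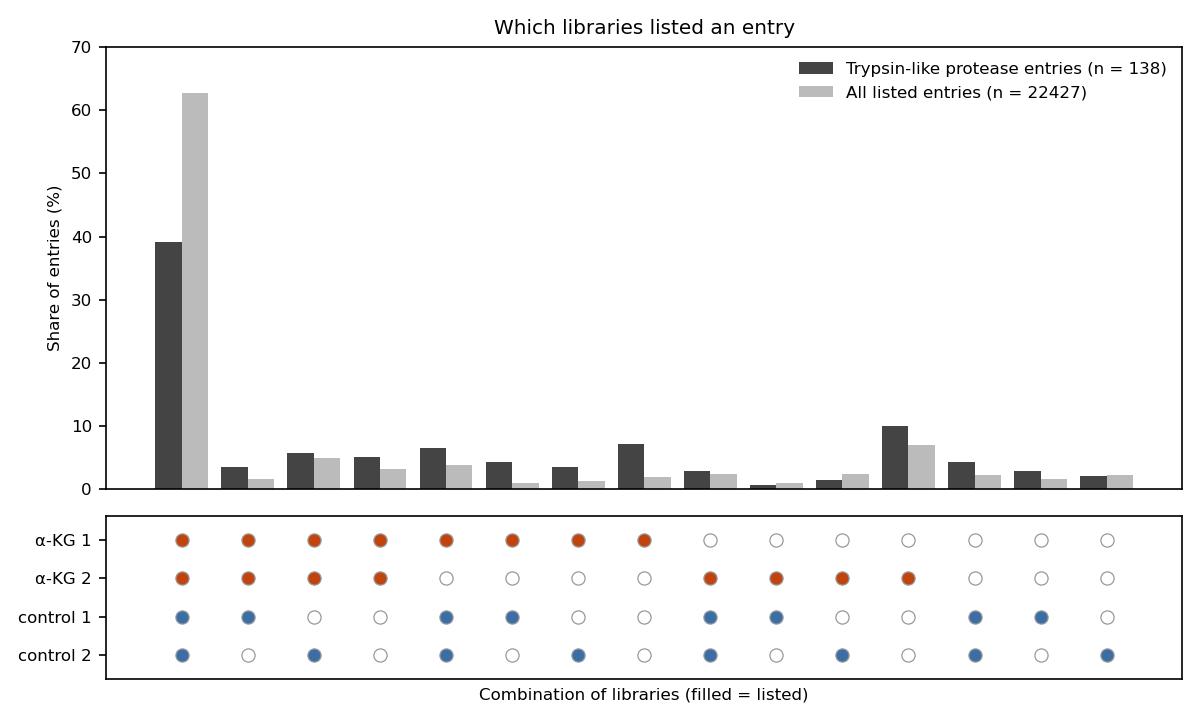
Share of entries (vertical axis, %) for each combination of libraries that listed them (dots below, filled where listed), for the 138 trypsin-like protease entries (dark bars) and all 22427 entries (light bars). The first pair of bars, entries in all 4 libraries, stands at 39.1% for the proteases and 62.8% for all entries.

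The comparison of the treatments asked whether α-KG changed which of these genes carried the mark. α-KG 1 listed 104 members and α-KG 2 listed 95, against 89 in control 1 and 91 in control 2. Both α-KG libraries thus lay above both controls, with means of 99.5 ± 6.36 members for α-KG and 90.0 ± 1.41 for control (SD, n = 2 each), a difference of 9.5. By exact permutation of the libraries (two-sided) p was 0.333, the smallest that 2 against 2 libraries allow, so the difference cannot pass a threshold of 0.05 in this design. The lists also differed in length, with 18120 and 19181 entries in α-KG 1 and α-KG 2 against 17245 and 18442 in control 1 and control 2. α-KG 1 and α-KG 2 thus listed 75.4% and 68.8% of the members and 80.8% and 85.5% of all entries, against 64.5% and 65.9% of the members and 76.9% and 82.2% of all entries in control 1 and control 2. As a share of its own list, the family made up 0.574% in α-KG 1 and 0.495% in α-KG 2, against 0.516% in control 1 and 0.493% in control 2. On that scale the groups overlapped (exact two-sided permutation p = 0.667), and the difference of 0.0299 percentage points became -0.00948 without α-KG 1.

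Loss under α-KG, a listing in the 2 controls but in no α-KG library, was seen for 6 of the 73 members in both controls (8.22%), beside 3.22% of all 16005 entries in both controls. The lost genes were the pancreatic trypsin genes Prss3 and Try10, the elastase gene Cela2a, cathepsin G (Ctsg, a neutrophil granule protease), coagulation factor XII (F12, which starts the contact pathway of clotting) and the airway-type transmembrane protease gene Tmprss11b. Gain, the reverse pattern, was seen for 7 of the 74 members in both α-KG libraries (9.46%), beside 4.48% of all 16287 such entries. The gained genes were the skin kallikrein gene Klk7, the complement protease gene C1s, Hp, Tmprss3, Prss29 and 2 entries without a symbol, ENSRNOG00000049266 and ENSRNOG00000050893. Lost and gained members together were 13 of the 138. Lost members were 4.35% of the 138, against 2.3% of all entries, and gained members 5.07%, against 3.25%. Pairs that cross the treatment varied too. α-KG 1 and control 1 alone shared 6 members (4.35%, against 1.06%), and α-KG 1 and control 2 shared 5 (3.62%, against 1.28%). α-KG 2 shared 1 with control 1 (0.725%, against 1.05%) and 2 with control 2 (1.45%, against 2.4%). Loss and gain depended on the libraries. Lost members numbered 15 without α-KG 1, 10 without α-KG 2, 9 without control 1 and 10 without control 2, and gained members 21, 17, 12 and 15 in the same order, as is built in when fewer libraries have to match. Counting only entries with a symbol, each symbol once, left 6 lost and 5 gained genes, without the 2 gained entries that have none. Among serpins, 2 of 20 entries in both controls (10.0%) were lost and 4 of 15 in both α-KG libraries (26.7%) were gained. For the ADAM, ADAMTS and MMP families, 0 of 48 were lost and 2 of 51 (3.92%) gained.

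**Figure D2:**
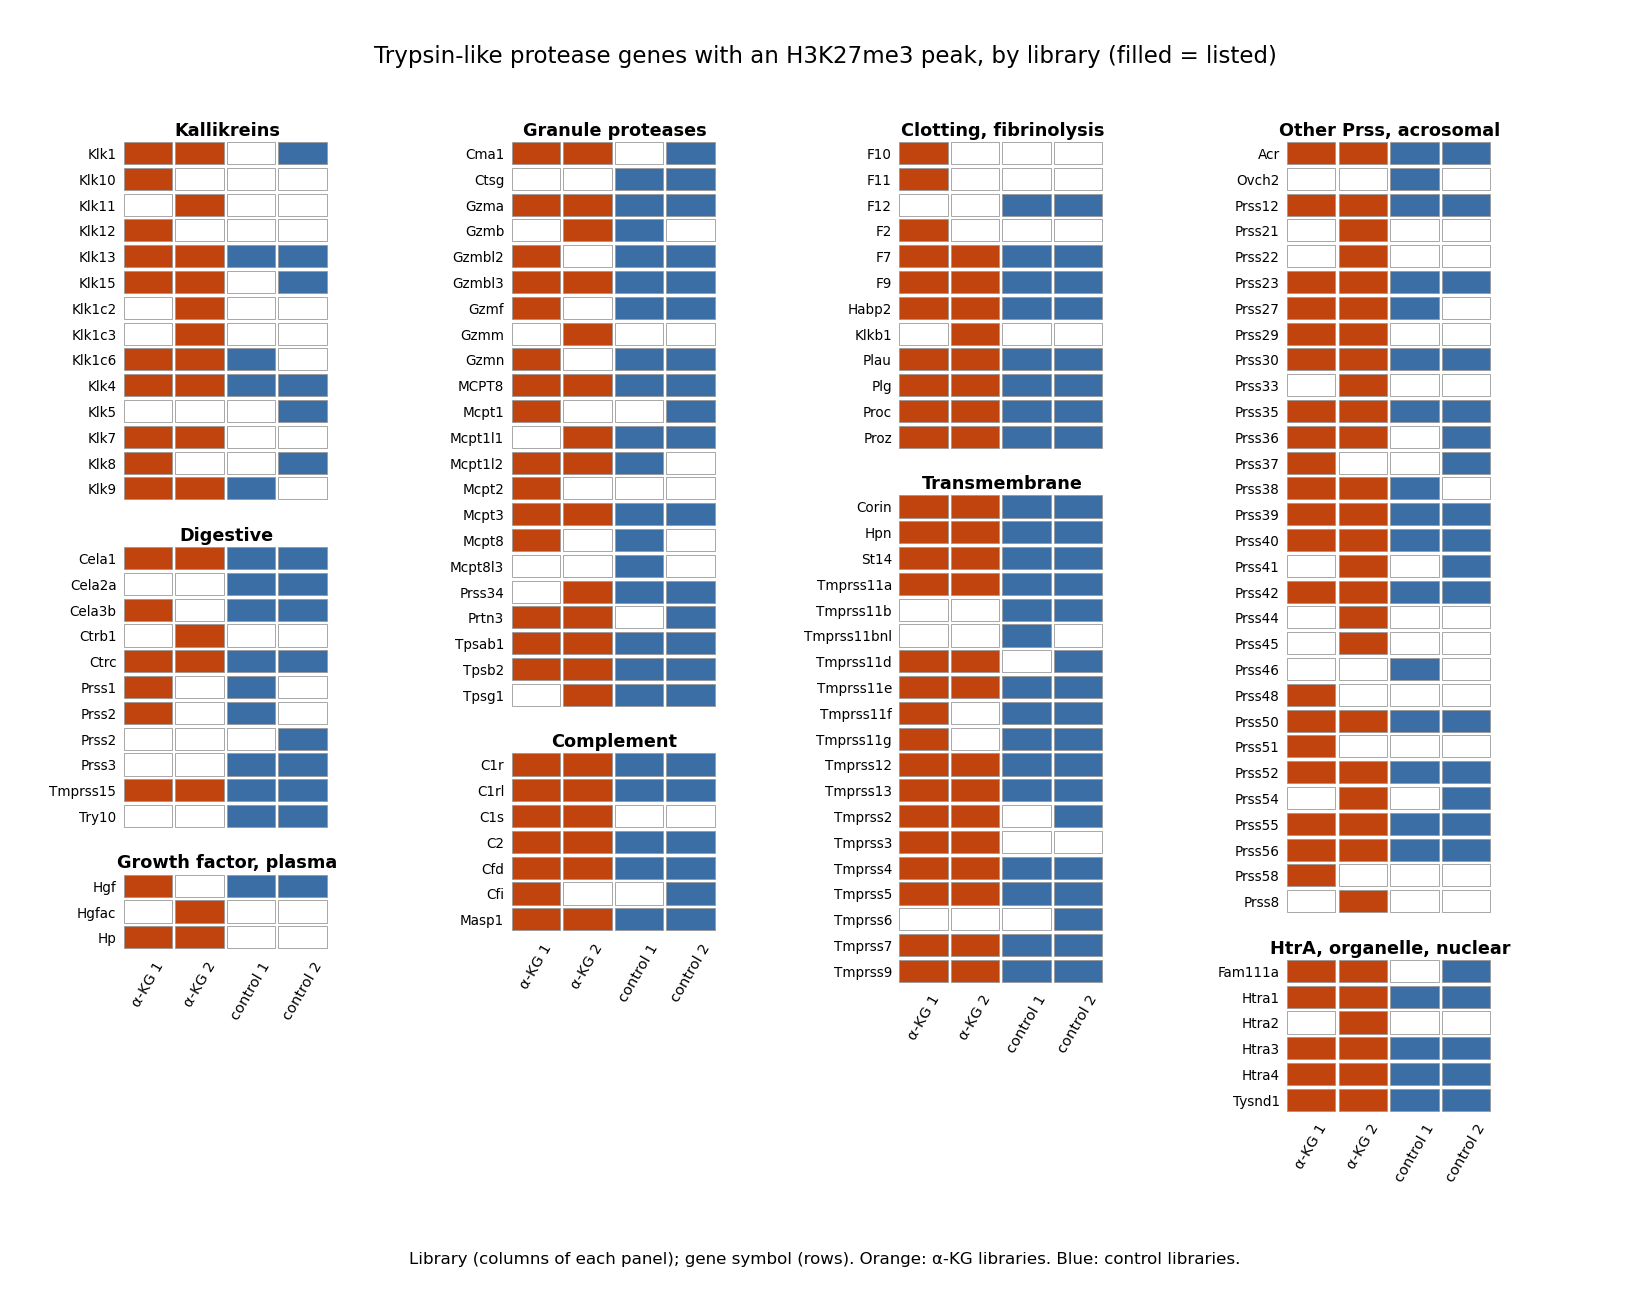
Listing of the 124 members that fall in a role group, 1 row for each gene entry and 1 column for each library, with filled tiles for listed genes (orange for α-KG, blue for control). Rows filled only on the left 2 columns are gained genes such as Klk7 and C1s, and rows filled only on the right 2 are lost genes such as Ctsg and F12. The 14 members in no group by symbol are not drawn.

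Promoter sequences of 5 members are shown because Polycomb marks in mammals often lie at promoters rich in CG dinucleotides, and these members cover genes listed in all 4 libraries (Corin and Htra1), lost (Ctsg and F12) and gained (Klk7). They were chosen after their values were seen. Each window, from RefSeq in build GRCr8, runs 5′ to 3′ from 250 bases before to 50 bases after the annotated start, with each CG in capitals. The windows are chr14:36035316-36035615 (+) for Corin, chr1:194927819-194928118 (+) for Htra1, chr15:33907547-33907846 (-) for Ctsg, chr17:9212569-9212868 (+) for F12 and chr1:103403466-103403765 (+) for Klk7.
Corin: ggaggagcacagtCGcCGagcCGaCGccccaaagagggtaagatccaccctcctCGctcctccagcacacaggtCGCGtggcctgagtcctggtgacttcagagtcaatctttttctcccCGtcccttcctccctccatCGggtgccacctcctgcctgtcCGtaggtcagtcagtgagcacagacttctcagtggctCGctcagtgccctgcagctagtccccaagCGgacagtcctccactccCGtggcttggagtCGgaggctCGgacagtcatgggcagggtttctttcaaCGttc
Htra1: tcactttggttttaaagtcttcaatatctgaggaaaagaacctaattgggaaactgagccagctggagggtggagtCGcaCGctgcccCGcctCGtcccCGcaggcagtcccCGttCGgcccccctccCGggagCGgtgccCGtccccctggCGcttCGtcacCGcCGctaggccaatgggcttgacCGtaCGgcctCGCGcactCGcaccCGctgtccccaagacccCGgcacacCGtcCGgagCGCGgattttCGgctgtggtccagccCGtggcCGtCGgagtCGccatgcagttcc
Ctsg: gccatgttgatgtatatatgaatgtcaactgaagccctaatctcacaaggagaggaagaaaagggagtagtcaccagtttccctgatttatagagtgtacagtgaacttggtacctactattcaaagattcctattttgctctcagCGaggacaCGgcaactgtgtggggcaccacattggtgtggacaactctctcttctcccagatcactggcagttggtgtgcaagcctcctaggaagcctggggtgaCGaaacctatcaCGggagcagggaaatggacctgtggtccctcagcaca
F12: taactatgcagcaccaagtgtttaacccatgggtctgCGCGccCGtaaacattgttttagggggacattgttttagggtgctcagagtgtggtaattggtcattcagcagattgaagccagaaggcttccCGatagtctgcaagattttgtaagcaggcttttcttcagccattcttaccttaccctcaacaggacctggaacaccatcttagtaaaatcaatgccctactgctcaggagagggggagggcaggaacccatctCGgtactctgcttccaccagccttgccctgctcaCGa
Klk7: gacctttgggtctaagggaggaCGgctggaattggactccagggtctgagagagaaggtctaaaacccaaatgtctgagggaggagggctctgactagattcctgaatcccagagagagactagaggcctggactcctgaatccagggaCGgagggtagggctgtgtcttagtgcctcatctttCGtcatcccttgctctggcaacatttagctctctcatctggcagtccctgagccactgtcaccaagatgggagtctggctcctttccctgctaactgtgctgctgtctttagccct

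The windows of Corin and Htra1 held 16 and 30 CG dinucleotides, with a GC content of 61.3% and 65.7%. At least as many CGs as in Corin were found in 30.5% of all 33469 promoter windows of the RefSeq table, and at least as many as in Htra1 in 10.3%. The windows of the lost genes Ctsg and F12 held 4 and 6, and that of the gained gene Klk7 held 3, against a median of 7 over all windows. CG reads the same on both strands, and 94.5% of all windows hold at least 1. Corin and Htra1 stand at the CG-rich end of the members in all 4 libraries. Of the 37 such members with exactly 1 window, 21 had fewer CGs than the median of all windows, Plg (plasminogen) and Tmprss15 (enteropeptidase) with 2 each among them. The 5 windows are single examples and do not stand for the listed, lost and gained members as groups. Where in each gene a peak lay is not known, and the lists were made on rn6, another build. Only 92 of the 138 members (66.7%) matched a window by symbol, so no summary of CG content over the family was made.

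Kallikreins, secreted proteases of skin, brain and glands whose genes lie in 1 tandem array, were listed more often in α-KG libraries. Of 14 kallikrein entries, α-KG 1 and α-KG 2 each listed 10, against 4 in control 1 and 6 in control 2. These counts did not overlap, whereas over all entries the α-KG libraries (80.8% and 85.5% listed) and the controls (76.9% and 82.2%) did. The difference of 5.0 entries ranged from 4.0 to 6.0 when 1 library was left out. No group was tested alone, since 2 against 2 libraries cannot pass 0.05. Klk13 and Klk4, a protease of tooth enamel formation, were in all 4 libraries. Klk7, which sheds cells from the skin surface, was in the 2 α-KG libraries but in no control, the 1 gained of 7 kallikreins in both α-KG libraries, beside 4.48% of all entries. Klk1, tissue kallikrein, which releases kinins, was in α-KG 1, α-KG 2 and control 2, as was Klk15. Klk9 and Klk1c6 were in α-KG 1, α-KG 2 and control 1. The other members were split between single lists, with Klk10 and Klk12 in α-KG 1 alone, Klk11, Klk1c2 and Klk1c3 in α-KG 2 alone, and Klk5 in control 2 alone, while Klk8 was in α-KG 1 and control 2. The 10 listings of the α-KG libraries were thus not the same 10 genes: 7 kallikreins were in both. Klk1c genes are near copies of each other, and reads between them can be misplaced, so the state of a single copy is uncertain.

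Digestive proteases showed the opposite order. Of 11 entries, α-KG 1 listed 6 and α-KG 2 listed 4, against 9 in control 1 and 8 in control 2, beside 80.8% and 85.5% of all entries in the α-KG libraries and 76.9% and 82.2% in the controls. The difference of -3.5 ranged from -4.5 to -2.5 without 1 library. The elastase gene Cela1, the chymotrypsin C gene Ctrc and Tmprss15, whose product activates trypsinogen, were in all 4 libraries. Prss3, Try10 and Cela2a were lost, which makes 3 of the 7 digestive entries in both controls, beside 3.22% of all entries. With 7 entries, some of them close copies, this is a description only. Cela3b was in α-KG 1 and both controls. Prss1 and 1 of the 2 entries named Prss2 were in α-KG 1 and control 1, the other Prss2 entry was in control 2 alone, and the chymotrypsinogen gene Ctrb1 in α-KG 2 alone. The trypsin genes are also close copies, with the same limit on single genes.

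Granule proteases of mast cells, lymphocytes and neutrophils had 22 entries, of which α-KG 1 and α-KG 2 listed 15 and 14, against 17 and 16 in control 1 and control 2. These counts did not overlap, with a difference of -2.0 entries, while over all entries the listed shares of α-KG (80.8% and 85.5%) and control (76.9% and 82.2%) did. Granzyme A (Gzma), which cytotoxic lymphocytes release into target cells, Gzmbl3, the mast cell protease genes MCPT8 and Mcpt3 and the tryptase genes Tpsab1 and Tpsb2 were in all 4 libraries. Ctsg was the 1 lost of 13 entries in both controls, beside 3.22% of all entries. None of the 9 in both α-KG libraries was gained, beside 4.48%. A second entry for the mast cell protease, Mcpt8, was in α-KG 1 and control 1 and not in the others. The mast cell protease and granzyme genes hold close copies too, so the state of a single one is uncertain. Granzyme B (Gzmb) was in α-KG 2 and control 1. Chymase (Cma1) and proteinase 3 (Prtn3) were in α-KG 1, α-KG 2 and control 2, and Mcpt1 was in α-KG 1 and control 2. Gzmf, Gzmn and Gzmbl2 were missing only from α-KG 2, and Mcpt1l1, Tpsg1 and Prss34 only from α-KG 1. In single libraries were Mcpt2 (α-KG 1), Gzmm (α-KG 2) and Mcpt8l3 (control 1). Of 4 mast cell markers, α-KG 1 and α-KG 2 listed 4 and 3, against 1 and 2 in control 1 and control 2. Of 3 cytotoxic lymphocyte markers they listed 1 and 2, against 0 and 1. Peaks at these markers do not show which cells carried them, and their part in the granule protease counts was not tested.

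Clotting and fibrinolysis enzymes were among the more fully listed groups, with 7 of 12 entries (58.3%) in all 4 libraries. α-KG 1 and α-KG 2 listed 10 and 8, and control 1 and control 2 listed 8 each, so the groups met at 8. In all 4 libraries were factor VII (F7) and factor IX (F9), which drive factor X activation, the anticoagulant protein C gene (Proc), Proz, Habp2, Plg and Plau. The tissue plasminogen activator gene Plat was not among the members. Factor XII was the 1 lost of 8 entries in both controls, beside 3.22% of all entries. None of the 7 in both α-KG libraries was gained, beside 4.48%. Prothrombin (F2), factor X (F10) and factor XI (F11), which act in the same cascade, were in α-KG 1 alone, and plasma kallikrein (Klkb1), which factor XII activates, was in α-KG 2 alone. F10 lies between Proz and F7 in RefSeq gene order, and both of these were in all 4 libraries.

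Complement proteases were listed in all 4 libraries for 5 of 7 entries (71.4%). These were C1r of the classical pathway, its relative C1rl, C2, factor D (Cfd), which cuts factor B in the alternative pathway, and Masp1 of the lectin pathway. α-KG 1 and α-KG 2 listed 7 and 6 complement entries, against 5 and 6 in control 1 and control 2. C1s, the partner of C1r in the C1 complex, was the 1 gained of 6 entries in both α-KG libraries, beside 4.48% of all entries. Its neighbour C1r was in all 4 libraries. None of the 5 entries in both controls was lost, beside 3.22%. Complement factor I (Cfi), which inactivates C3b and C4b, was in α-KG 1 and control 2.

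Transmembrane serine proteases had 19 entries, of which 11 (57.9%) were in all 4 libraries. Corin, the activator of atrial natriuretic peptide in cardiomyocytes, was in all 4, as were hepsin (Hpn), matriptase (St14), a protease of epithelial barriers, and Tmprss11a. α-KG 1 and α-KG 2 listed 16 and 14 entries, against 15 and 17 in control 1 and control 2, so the groups overlapped. Tmprss3, which is needed for hearing in humans and mice, was the 1 gained of 14 entries in both α-KG libraries, beside 4.48% of all entries. Tmprss11b was the 1 lost of 14 in both controls, beside 3.22%. Tmprss2, an epithelial protease, and Tmprss11d were missing only from control 1, and Tmprss11f and Tmprss11g only from α-KG 2. Tmprss6, which limits hepcidin production in the liver, was in control 2 alone.

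HtrA and related proteases of matrix, mitochondria, peroxisomes and nucleus had 4 of 6 entries in all 4 libraries. Htra1 and Htra3, secreted proteases that cut matrix proteins, Htra4 and the peroxisomal Tysnd1 were in all 4, and the nuclear Fam111a was missing only from control 1. Htra2, a mitochondrial protease that most cells use, was in α-KG 2 alone. Hgf was in α-KG 1 and both controls, its activator Hgfac in α-KG 2 alone, and Hp, which binds free haemoglobin, was gained.

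The remaining Prss, acrosomal and ovochymase genes, many of them known from testis, made up the largest group with 30 entries. α-KG 1 listed 20 and α-KG 2 listed 24, against 16 each in control 1 and control 2. These counts did not overlap, while over all entries the listed shares of α-KG (80.8% and 85.5%) and control (76.9% and 82.2%) did. The difference of 6.0 entries ranged from 4.0 without α-KG 2 to 8.0 without α-KG 1. The sperm protease acrosin (Acr), neurotrypsin (Prss12), which cuts agrin at synapses, Prss23 and Prss30 were among the 12 in all 4 libraries. Prss29 was the 1 gained of 16 entries of this group in both α-KG libraries, beside 4.48% of all entries. None of its 12 entries in both controls was lost, beside 3.22%. In α-KG 2 alone were 6 entries, Prss21, Prss22, Prss33, Prss44, Prss45 and prostasin (Prss8, which activates the epithelial sodium channel), and in α-KG 1 alone were Prss48, Prss51 and Prss58. Ovch2 and Prss46 were in control 1 alone and no entry of this group was in control 2 alone. The 14 entries that no group takes by symbol numbered 13 in α-KG 1 and 7 in α-KG 2, against 10 in control 1 and 8 in control 2.

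**Figure D3:**
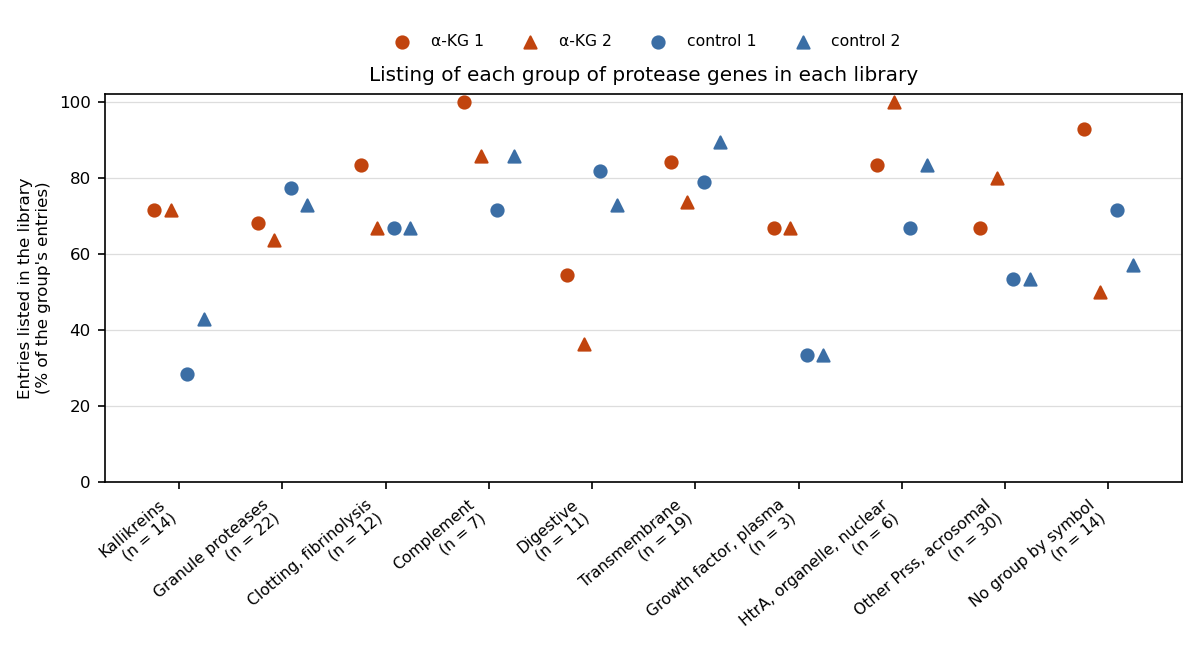
Share of each group's entries (vertical axis, %) that each library listed, with α-KG libraries in orange, controls in blue, circles for replicate 1 and triangles for replicate 2. Kallikreins stand at 10 and 10 of 14 entries in the α-KG libraries against 4 and 6 in the controls, and digestive proteases at 6 and 4 of 11 against 9 and 8.

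Over all groups, members in a single library were found mostly under α-KG. Over the whole lists such entries were most frequent in α-KG 2, while α-KG 1 held fewer of them than control 2. α-KG 1 held 10 such members and α-KG 2 held 14, against 4 in control 1 and 3 in control 2. These were 7.25% and 10.1% of the 138 members, against 2.9% and 2.17%. Among all listed entries α-KG 1 held 455 and α-KG 2 held 1561 alone, against 388 in control 1 and 509 in control 2. These were 2.03% and 6.96% of all entries, against 1.73% and 2.27%. α-KG 2 thus had the most single listings in both. Of the 26 members in 3 libraries, α-KG 1 lacked 4 and α-KG 2 lacked 9, against 8 and 5 for control 1 and control 2.

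Neighbouring members did not form uniform blocks. In RefSeq gene order, 118 members could be placed, and 53 of them fell into 7 clusters of at least 5 members with no more than 10 other protein-coding genes between neighbours. In the array from Klk13 to Klk15, the 14 genes showed 8 different combinations of libraries. The trypsin cluster from Prss37 to Prss1 had 6 placed members, of which α-KG 1 and α-KG 2 listed 4 and 1, against 4 in each control, and Tryx5 was the member α-KG 2 listed. The cluster of mast cell protease and granzyme genes from Cma1 to Gzmb had 11, of which α-KG 1 and α-KG 2 listed 7 and 5, against 9 and 8 in control 1 and control 2. These counts did not overlap, while over all entries the listed shares of α-KG (80.8% and 85.5%) and control (76.9% and 82.2%) did. Of its 6 members in both controls 1 was lost, beside 3.22% of all entries. The Tmprss11 cluster had 6 placed members, with 5 and 3 in α-KG 1 and α-KG 2, against 5 and 6. In these 3 clusters α-KG 2 listed the fewest. In the cluster from Prss33 to Prss27 it listed the most, with all 6 members, against 2 in α-KG 1 and 2 in each control. The testis genes from Prss42 to Prss50 had 2 and 4 of 5 members in α-KG 1 and α-KG 2, against 3 and 2, and the tryptase cluster from Prss34 to Tpsg1 had 3 and 5 of 5, against 4 in each control. The 2 α-KG libraries differed from each other for 6 genes of the kallikrein array, for 6 of the Cma1 to Gzmb cluster and for 4 from Prss33 to Prss27. The 2 controls also differed from each other, in the kallikrein array for Klk9, Klk8, Klk5, Klk1c6, Klk1 and Klk15. From Cma1 to Gzmb they differed for Cma1, Mcpt8l3, Mcpt8, Mcpt1 and Gzmb, and from Prss33 to Prss27 for Prss41 and Prss27. Gene order came from GRCr8 and may differ from rn6.

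**Figure D4:**
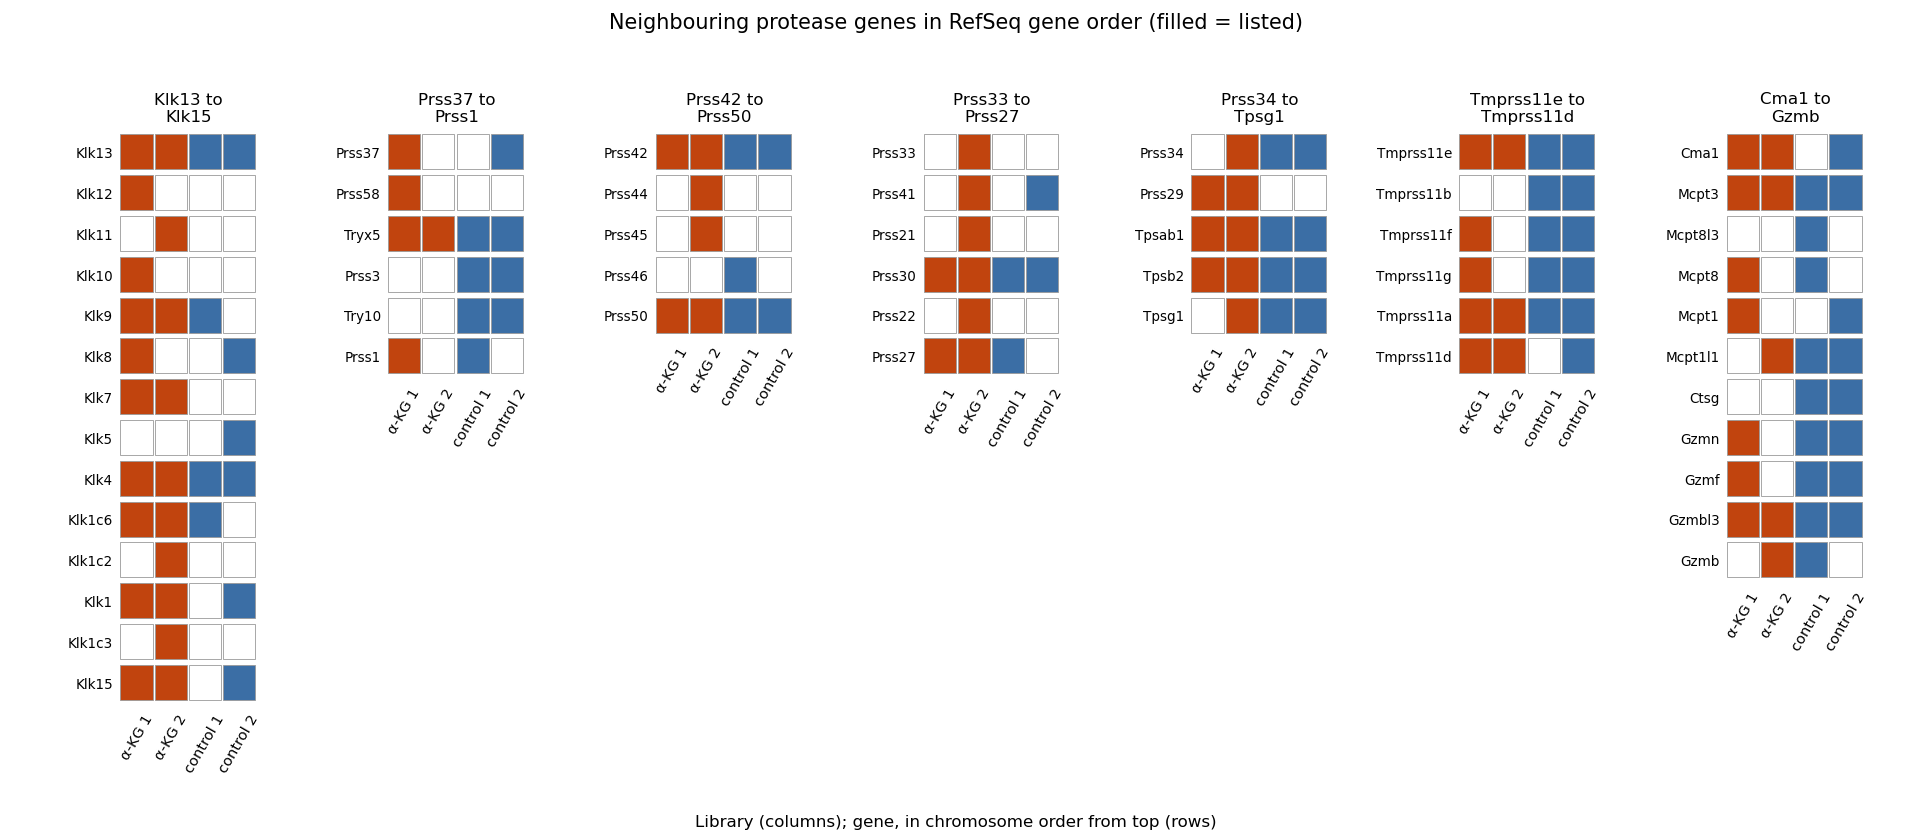
Listing of the 53 clustered members, 1 panel for each cluster, with genes from top to bottom in RefSeq order and 1 column for each library (filled where listed, orange for α-KG, blue for control). The column of α-KG 2 is filled for all 6 genes from Prss33 to Prss27 and for 1 of 6 from Prss37 to Prss1.

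Members for which the lists name further domains were listed more completely than those with the peptidase names alone. Of 45 members with another domain name, 26 (57.8%) were in all 4 libraries, against 28 of 93 (30.1%) with peptidase names alone and 62.8% of all entries. The split follows the domain names in the lists, which may be incomplete. Complement factor I, for example, has no other domain name there. Among the accessory domains, 7 of 10 members with LDL receptor class A repeats, 6 of 8 with an SRCR domain, 6 of 9 with a CUB domain, 4 of 6 with a GLA domain, 4 of 8 with a kringle and 5 of 11 with a SEA domain were in all 4. The same members can carry several of these domains, and these shares have no test.

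Genes that act with the proteases were listed in all 4 libraries for 24 of 52 entries, from a list of 60 receptors, cofactors, inhibitors and substrates. Of the 32 in both controls 0 were lost, beside 3.22% of all entries, and of the 33 in both α-KG libraries 2 were gained, beside 4.48%, so both counts lay near the background. The gained genes were F2rl3, the protease-activated receptor 4 gene that thrombin uses on platelets, and Serpinb5 (maspin). The receptor gene F2r had no entry in any list, while F2rl1 and F2rl2 were in all 4. So were 8 of 11 clotting cofactors and substrates, among them tissue factor (F3, which starts clotting with factor VII), F13a1, F5 and F8. Of the Kunitz, Kazal and related inhibitors, 4 of 11 were in all 4 (Spink4, Spint1, Spint2 and Tfpi2), and Tfpi, which blocks tissue factor, was missing only from α-KG 2. Of the serpins on the list, 3 of 13 were in all 4, and Serpinc1, the antithrombin gene, was missing only from α-KG 2. Of the receptors and substrates, 7 of 14 were in all 4, among them Met, the receptor of Hgf, and Agrn, the target of neurotrypsin. Nppb was in all 4 and Nppa, the corin substrate, in control 2 alone.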

How the data were processed

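The values used are deposited gene lists, 1 for each H3K27me3 library, with 3 text columns and no header: an Ensembl ID, a symbol and the names of protein domains. Unit and origin were read from the lists, which give no count, score or position, so no interval that needs depth was computed. CASAVA, BWA, MACS2 and build rn6 are named, without roles or versions, per the submitters' processing notes. Peak settings, use of input and assignment of peaks to genes are not stated there, in the labels or in the lists.

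The lists were read with Python 3.11.15, pandas 2.3.3 and numpy 2.4.6, and plotted with matplotlib 3.10.9. Groups and replicate numbers came from the labels. Members were taken by exact domain name, and role groups by symbol. The members, groups and partner list were chosen with earlier results of these data known. Counts per library and shares of each list were compared by exact two-sided permutation tests over libraries. Loss, gain and listing in all 4 libraries were counted beside all entries, without a test. By rule, the text names members lost or gained, up to 4 per group in all 4 libraries, up to 6 in each library alone, and a set of heart and vessel genes; the others were named after their values were seen. RefSeq (GRCr8) served for names, gene order (85.5% of members placed) and promoter sequences. The counting was tested on simulated lists. Alternatives were a replicate block, the lists without each library in turn, a stricter domain rule, 1 entry per symbol and RefSeq family genes.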

Additional observations from a re-analysis of the deposited data

How the results depend on the processing

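The difference in listed members stayed positive in every setting run, from 5.0 to 14.0 without 1 library, 9.0 under the stricter domain rule (137 entries) and 8.0 with 1 entry per symbol (128 symbols). The difference in share ranged from -0.00948 percentage points without α-KG 1, a reversal, to 0.0692 without α-KG 2, and the cause was not tested. Without 1 library, lost members numbered 9 to 15, gained members 12 to 21 and members in all remaining libraries 58 to 63, by construction at least as many as with all 4. With a replicate block, the paired differences averaged 9.5 members (15 for replicate 1 and 4 for replicate 2) and 0.0299 percentage points, both with an exact sign-flip p = 0.5, the smallest that 2 pairs allow. The labels do not say that equal numbers mark a shared culture. Of 160 RefSeq genes that match the role groups by symbol, 50 (31.2%) were in all 4 libraries. Leaving out 1 library per role group, a setting added after the data were seen, turned the sign in 1 of 40 cases, that of members in no group (-2.0 without α-KG 1, against 1.0), and brought the difference to 0 in 4 others: clotting without α-KG 1, transmembrane without α-KG 2 or control 2, and members in no group without control 2. Read depth is unknown, so an unlisted gene cannot be told from an undetected one.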
